A study of Arabidopsis thaliana with 8 samples.

Results

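The comparison described here is that of *urt1-1 xrn4-3* with WT, made across every mRNA locus of the deposited table and read by gene function. It used 4 of the 8 libraries for its values, the 2 of *urt1-1 xrn4-3* and the 2 of WT, while all 8 libraries entered the fit and its estimate of the spread. Of 24859 mRNA loci in the table, 24722 had enough reads to be tested. *urt1-1 xrn4-3* plantlets carried the T-DNA insertion alleles *urt1-1* and *xrn4-3* together, and WT plantlets carried neither. The other genotypes of the series, *urt1-1* and *xrn4-3*, carried 1 allele each. All plantlets were of the Col-0 accession and were 24 days old, grown in culture in a cycle of 12 h light (22 °C) and 12 h dark (18 °C), and RNA of 18 to 30 nt was sequenced. Each gene was represented by a single insertion allele. The 2 libraries of a genotype are biological replicates, which the study defines as separately timed growths of a genotype, and no source says whether libraries of different genotypes with the same number were grown together.

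URT1 is the terminal uridylyltransferase that adds uridines to the shortened poly(A) tails of cytoplasmic mRNAs in Arabidopsis, and XRN4 is the cytoplasmic exoribonuclease that degrades decapped mRNAs from the 5′ end. Plant RNA-dependent RNA polymerases can copy aberrant mRNAs into double-stranded RNA, and Dicer-like enzymes cut that RNA into small interfering RNAs (siRNAs). An siRNA can guide the cleavage or the translational repression of an mRNA that it matches, including a paralogue of the gene it came from. Small RNA reads at a locus measure the small RNA and not the level of the mRNA. The sizes of the reads were not analysed here, and in RNA from whole plantlets fewer cells of a type and less RNA per cell cannot be told apart.

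Reads that match several loci equally well could be counted at each, so the exact sequence shared by pairs of genes that rose together is shown first. In the lines below, capitals mark the longest run of bases that the spliced transcripts of the pair share, and each window lies in coding sequence (RefSeq, TAIR10.1, 5′ to 3′ on the strand of the gene).
NIA1 (chr1:29238737-29238766, minus strand): gccgcAAGGAACAGAACATGGTGAAacaaa
NIA2 (chr1:14159200-14159229, plus strand): gccgtAAGGAACAGAACATGGTGAAgaagt
GTE2 (chr5:3332998-3333026, minus strand): ctCCATTTGTGGAAGCAAAAGAAGCCCcg
GTE7 (chr5:26226317-26226345, minus strand): cgCCATTTGTGGAAGCAAAAGAAGCCCaa
ADT4 (chr3:16271874-16271903, plus strand): cgGAGTCGTTTAGCTTCCCTAACGGTGTct
ADT5 (chr5:7524772-7524801, plus strand): ctGAGTCGTTTAGCTTCCCTAACGGTGTtg
PUB25 (chr3:6715484-6715513, minus strand): CACGTCTCTGTTCGTTCACGCGCCGCCGCT
PUB26 (chr1:18429909-18429938, minus strand): CACGTCTCTGTTCGTTCACGCGCCGCCGCT
The nitrate reductase pair shared no run longer than 20 bases, so no 21-base window of NIA1 was found in NIA2 (0%). The longest shared run was 25 bases for the bromodomain genes GTE2 and GTE7, where 0.579% of the 21-base windows of GTE2 were found in GTE7. It was 26 bases for the arogenate dehydratases ADT4 and ADT5, with 0.637% of the windows of ADT4 in ADT5. It was 30 bases for the ubiquitin ligases PUB25 and PUB26, with 1.09% of the windows of PUB25 in PUB26. The longest run of the pairs examined, 35 bases, was that of LBD37 and LBD39, which are not among the lines above. Of the windows of LBD37, 0.862% were found in LBD39, and 1.6% of those of LBD39 in LBD37. The exact 21-base sequence in common was therefore a small part of each of these transcripts, although the mapping of the reads also allowed a mismatch.

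Small RNA rose at many more loci than it fell in *urt1-1 xrn4-3*. With edgeR's likelihood ratio test and Benjamini-Hochberg adjustment at 0.05, 2474 loci had more reads in *urt1-1 xrn4-3* than in WT (10% of the loci tested, called raised below) and 260 had fewer (1.05%, called lowered). edgeR's quasi-likelihood test called 1808 (7.31%) and 86 (0.348%). The counts of raised loci were 1419 without *urt1-1 xrn4-3* replicate 1, 1348 without WT replicate 1 and 1300 without WT replicate 2. The median log2 fold change of the raised loci was 1.98 (quartiles 1.53 and 2.75), and 1216 of them changed at least 4-fold, 483 at least 8-fold, 70 at least 32-fold and 17 at least 64-fold. At 2473 of these 2474 loci both *urt1-1 xrn4-3* libraries were above both WT libraries, an order found at 30.1% of all loci tested. They took 41.0% and 28.4% of all counted reads in *urt1-1 xrn4-3*, compared with 1.53% and 1.44% in the WT libraries. Without NIA1 and NIA2 the same shares were 14.4% and 13.6% in *urt1-1 xrn4-3*, against 1.496% and 1.40% in WT. The loci were selected as higher in these same libraries, so the direction of these shares follows from the selection.

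**Figure D1:**
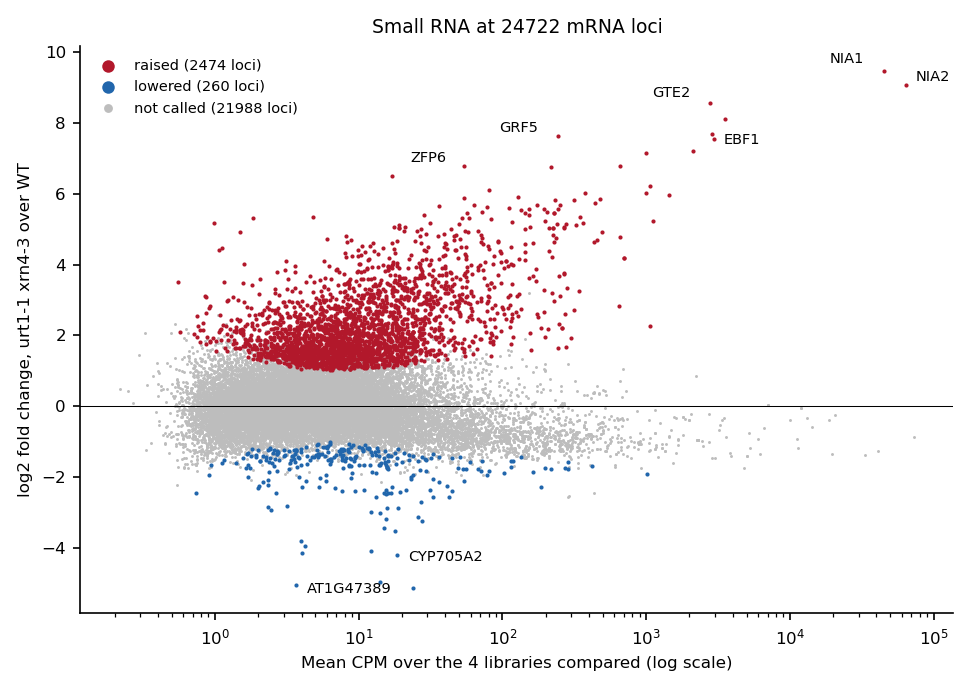
Log2 fold change of *urt1-1 xrn4-3* over WT (vertical axis) against the mean CPM (counts per 1000000 counted reads) over the 4 libraries (horizontal log axis), 1 point per mRNA locus. The 2474 raised loci are red, the 260 lowered loci blue and the 21988 loci not called grey, and the raised loci reach a log2 fold change of 9.46 at NIA1.

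The libraries compared held 9895132 to 30064224 reads counted on mRNA loci. Values per library are counts per 1000000 counted reads (CPM), with the library total scaled by its TMM factor (trimmed mean of M-values). The URT1 locus had 9.20 and 5.94 CPM in *urt1-1 xrn4-3*, compared with 10.2 and 15.7 CPM in WT (log2 fold change −0.78, SE 0.88, adjusted p = 0.666). The XRN4 locus had 7.51 and 6.25 CPM in *urt1-1 xrn4-3*, compared with 12.97 and 11.4 CPM in WT (−0.83, SE 0.38, adjusted p = 0.161). Neither passed the test, and reads of small RNA do not check a T-DNA insertion. The 2 libraries of *urt1-1 xrn4-3* correlated at r = 0.937 across loci in log2 CPM and those of WT at r = 0.946, and no pair of libraries agreed within sampling noise. The median log2 fold change over all loci was 0.01. It was 0.74 when reads mapped to the genome, as the study lists them, replaced the counted reads as library sizes. Fold changes below are relative to a median close to 0.

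Among the 25 most raised loci with at least 10 reads per library on average, log2 fold changes ran from 5.69 to 9.46. The nitrate reductases NIA1 and NIA2, which reduce nitrate to nitrite, led the order. GTE2 and GTE7 followed with the neighbour of GTE2, the oligopeptidase gene TOP2, which overlaps it on the opposite strand. GTE7 overlaps AT5G65620 in the same way, so that the reads of these overlapping genes cannot be told apart without strand. The others came from many functions, as the next loci in the order show. GRF5, a growth-regulating transcription factor of leaf cell proliferation, had 658 and 309 CPM in *urt1-1 xrn4-3*, compared with 2.22 and 2.61 CPM in WT (7.64, SE 0.69, adjusted p = 1.44e-14). It was the only raised member of the 9 GRF genes (list drawn up after the values had been seen), and GRF2 was lowered (4.06 and 5.28 CPM, against 8.37 and 13.8 CPM in WT, log2 fold change −1.23, SE 0.42, adjusted p = 0.0386). The GRF2 call was lost with the quasi-likelihood test and with DESeq2, and without either *urt1-1 xrn4-3* library or WT replicate 2. The other 7 GRF genes lay between −0.46 and 0.43. AT5G20700, an FLZ-type zinc finger gene (DUF581; chr5:7005844-7007117), had 4764 and 3703 CPM in *urt1-1 xrn4-3*, compared with 28.2 and 28.7 CPM in WT (7.22, SE 0.62, adjusted p = 1.60e-15). DGAT3, a soluble diacylglycerol acyltransferase of oil synthesis, had 2522 and 1415 CPM, against 15.6 and 12.1 CPM in WT (7.15, SE 0.54, adjusted p = 4.45e-21). The 25 loci were chosen among raised loci without overlap between the libraries of the 2 genotypes, so this order was set by the choice. It was found at 30.1% of all loci tested. DGAT3 (chr1:17847356-17848564, plus strand) overlaps AT1G48310 on the minus strand, so its reads cannot be assigned to a strand.

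ZFP6, a zinc finger factor of trichome formation, had 56.6 and 158 CPM in *urt1-1 xrn4-3*, compared with 0.593 and 1.35 CPM in WT (log2 fold change 6.79, SE 0.78, adjusted p = 1.35e-10). PAO5, a polyamine oxidase, had 310 and 549 CPM, against 3.93 and 3.96 CPM in WT (6.76, SE 0.76, adjusted p = 4.93e-10). AT1G51355, annotated as similar to the cyclin-dependent kinase inhibitor SMR3, had 29.0 and 39.0 CPM, against 0.667 and 0 CPM in WT (6.52, SE 0.86, adjusted p = 1.02e-09). These were loci with little small RNA in WT, whereas the next was higher there. TCP14, a growth and germination factor of the TCP family, had 2303 and 1631 CPM in *urt1-1 xrn4-3*, compared with 31.8 and 29.1 CPM in WT (6.01, SE 0.65, adjusted p = 2.80e-11). AT1G13360, annotated as uncharacterized, had 3518 and 2169 CPM, against 51.0 and 40.5 CPM in WT (5.96, SE 0.62, adjusted p = 6.15e-12). EXPA4, an expansin that loosens cell walls, had 235 and 268 CPM, against 3.93 and 4.38 CPM in WT (5.92, SE 0.64, adjusted p = 1.13e-11). The replicates of *urt1-1 xrn4-3* differed most at ADT5 among these 25 loci (244 and 1222 CPM), yet the lower value was still far above the 10.6 and 12.0 CPM of WT.

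**Figure D2:**
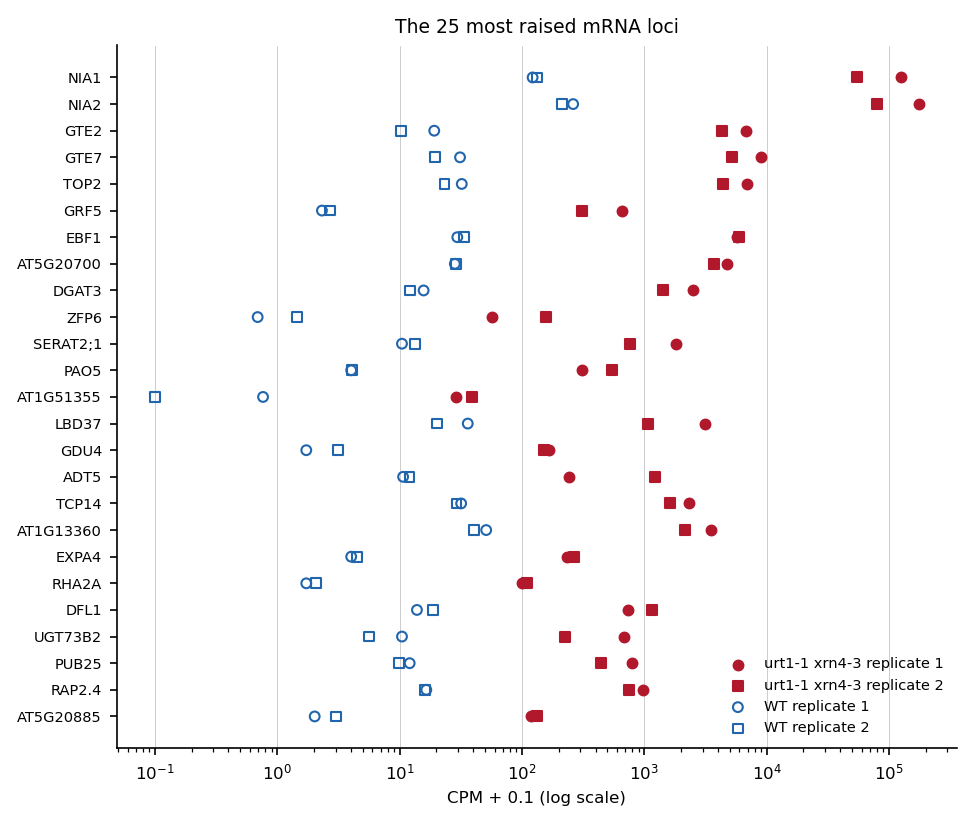
The 25 most raised mRNA loci, ordered from the top by log2 fold change, with the CPM of each library plus 0.1 on a log axis. Filled red symbols are the *urt1-1 xrn4-3* libraries and open blue symbols the WT libraries (circle for replicate 1, square for replicate 2). By the rule of selection the libraries of *urt1-1 xrn4-3* lie to the right of both WT libraries at every locus shown. WT values start at 0 CPM in 1 library of AT1G51355.

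The 25 most raised loci differed in how far the double mutant exceeded *xrn4-3*. All 25 were called above *urt1-1* by the likelihood ratio test (8.35% of all loci) and 15 above *xrn4-3* (1.73% of all loci), 7 of them by the quasi-likelihood test. These comparisons share the *urt1-1 xrn4-3* libraries with that against WT. In the test of whether the effect of *urt1-1* differed between the *xrn4-3* and the WT background, 22 loci of the table were higher (0.089%) and 8 lower (0.0324%), and 7 of the 25 were among those higher. The quasi-likelihood test called none of the 25 in it, with 8 at an unadjusted p under 0.05. The log2 fold change of *urt1-1 xrn4-3* over *xrn4-3* ran from 0.38 to 8.94 with a median of 2.67. At DGAT3 *urt1-1 xrn4-3* had 2522 and 1415 CPM against 17.02 and 15.02 CPM in *xrn4-3* (6.94, SE 0.54, adjusted p = 1.45e-19), and at the auxin-conjugating GH3 gene DFL1 it had 736 and 1152 CPM against 18.8 and 20.03 CPM in *xrn4-3* (5.60, SE 0.54, adjusted p = 1.84e-14). At AT1G13360 the double mutant had 3518 and 2169 CPM against 1029 and 3347 CPM in *xrn4-3* (0.38, SE 0.62, adjusted p = 0.943), and at PAO5 310 and 549 CPM against 54.2 and 419 CPM in *xrn4-3* (0.86, SE 0.74, adjusted p = 0.819). The libraries of *urt1-1 xrn4-3* and *xrn4-3* thus overlapped at AT1G13360 and PAO5 and did not at DGAT3 and DFL1, and whether loci differed from each other in this was not tested. Over all 2474 raised loci, 884 were also called above WT in *xrn4-3* (4.19% of all loci, with the WT libraries shared) and 402 were called above *xrn4-3* in *urt1-1 xrn4-3*, 41 of them by the quasi-likelihood test.

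Nitrogen genes rose well beyond the nitrate reductases, and at successive steps of nitrate use. Of 50 genes of nitrate uptake and assimilation, 13 were raised and none was lowered (26.0% raised, median log2 fold change 0.29), and none was lowered by the quasi-likelihood test or DESeq2 either. NIR1, the nitrite reductase of the plastid, had 246 and 149 CPM in *urt1-1 xrn4-3*, compared with 39.9 and 30.1 CPM in WT (2.49, SE 0.50, adjusted p = 6.52e-05). UPM1, a methyltransferase that makes the sirohaem cofactor of nitrite and sulfite reductases, had 72.7 and 30.5 CPM, against 7.85 and 5.63 CPM in WT (2.93, SE 0.52, adjusted p = 4.90e-06). NRT2.7, a nitrate transporter of the tonoplast known for seed nitrate, had 208 and 77.7 CPM, against 20.7 and 12.2 CPM in WT (3.11, SE 0.61, adjusted p = 6.79e-05). The genes that carry nitrate to nitrite and on to ammonium were therefore all called, whereas of the ammonium-assimilating enzymes the chloroplast glutamine synthetase GS2 had 53.6 and 51.5 CPM, against 150 and 87.6 CPM in WT (−1.18, not called).

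Nitrate-responsive regulators stood with the enzymes. LBD37, which represses nitrate and anthocyanin genes, had 3137 and 1070 CPM in *urt1-1 xrn4-3*, compared with 36.0 and 20.01 CPM in WT (log2 fold change 6.23, SE 0.66, adjusted p = 2.89e-11). Its close relatives LBD39 (5.03) and LBD38 (2.06) were raised too. HRS1, a repressor of primary root growth under nitrate, had 26.1 and 16.2 CPM, against 2.59 and 2.40 CPM in WT (3.07, SE 0.44, adjusted p = 4.24e-09). The BTB scaffold genes BT2 (2.67) and BT1 (1.63) and the asparagine synthetase ASN2 (1.95) were also raised. ASN1, the dark-induced asparagine synthetase, had 53.0 and 309 CPM, against 206 and 767 CPM in WT, and the spread between replicates was too wide for a call (−1.43). The nitrate transporter and sensor NRT1.1 was not called (26.1 and 43.2 CPM, against 13.7 and 25.2 CPM in WT, log2 fold change 0.84), nor was the nitrate-sensing factor NLP7 (0.65). Of the other NRT2 transporters listed, 6 lay between −0.51 and 0.19 without a call. Over the 31 LBD factors, 8 were raised (25.8%, list drawn up after the values had been seen). Among them were the low-oxygen-responsive LBD41 (50.7 and 163 CPM, against 3.11 and 3.75 CPM in WT, log2 fold change 4.96, SE 0.76, adjusted p = 1.22e-06) and the leaf polarity gene AS2 (2.23). Without WT replicate 1 the raised LBD factors numbered 4, and without WT replicate 2 the raised genes of the nitrate list numbered 8.

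The glutamine dumpers, small membrane proteins whose overproduction makes Arabidopsis export amino acids, were raised at 4 of 5 loci (median 3.91). This was 80%, against 10% of all loci, and the list was drawn up after the values had been seen. GDU4 had 166 and 151 CPM in *urt1-1 xrn4-3*, compared with 1.63 and 3.02 CPM in WT (log2 fold change 6.10, SE 0.66, adjusted p = 6.95e-12). GDU3 (4.81), GDU1 (3.91) and GDU2 (1.51) were raised as well, while GDU5 stayed near 1 CPM in all 4 libraries (1.69 and 1.03 CPM, against 1.04 and 0.625 CPM in WT). GDU2 was not called by the quasi-likelihood test (adjusted p = 0.0587), and 2 of the loci were raised without *urt1-1 xrn4-3* replicate 2 and 2 without WT replicate 1.

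Glucosinolates are the sulfur-rich defence compounds of the Brassicaceae, built from methionine or tryptophan. Of 45 genes that make them, or regulate those that do, 22 were raised and 3 lowered (48.9% and 6.67%, median 1.25). The list was drawn up after the values had been seen. MYB28 and MYB29, the MYB factors of the methionine-derived branch, were raised. MYB28 had 188 and 85.2 CPM in *urt1-1 xrn4-3*, compared with 4.74 and 6.25 CPM in WT (4.64, SE 0.61, adjusted p = 7.28e-09), and MYB29 had 68.2 and 26.3 CPM, against 2.59 and 3.54 CPM in WT (3.95, SE 0.56, adjusted p = 1.75e-08). MYB34, of the tryptophan-derived branch, had 21.3 and 62.6 CPM, against 2.82 and 5.63 CPM in WT (3.32, SE 0.64, adjusted p = 6.28e-05). Regulators of both branches were thus raised, whereas MYB51, MYB76 and MYB122 were not called (1.11, 0.99 and 0.05).

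The enzymes of the glucosinolate core pathway were called at most steps. CYP79B2 (log2 fold change 3.33) and CYP79B3 (3.78), which convert tryptophan to its oxime, and CYP79F1 (1.33) and CYP79F2 (2.12), which do so for elongated methionine, were raised. Of the enzymes that use these oximes, CYP83A1 was raised (107 and 64.3 CPM, against 15.4 and 6.77 CPM in WT, log2 fold change 2.94, SE 0.55, adjusted p = 2.75e-05), but CYP83B1 had 28.8 and 32.2 CPM, against 35.4 and 25.6 CPM in WT and was not called. The C-S lyase SUR1 (1.53) and the sulfotransferases SOT16 (1.63) and SOT17 (1.39) were raised as well, while SOT18 (1.25) was not called. By the quasi-likelihood test CYP79F1 (adjusted p = 0.0968) and SOT16 (adjusted p = 0.0587) were not called. UGT74B1, which glucosylates the thiohydroximate intermediate, had the largest change of the list, with 309 and 218 CPM in *urt1-1 xrn4-3*, compared with 4.89 and 6.36 CPM in WT (5.55, SE 0.54, adjusted p = 5.65e-15). It was also above *xrn4-3*, which had 12.6 and 24.9 CPM (3.81, SE 0.53, adjusted p = 1.21e-07). In the elongation of methionine, the isopropylmalate isomerase subunits IPMI1 (3.20) and IPMI2 (2.70), the dehydrogenase IMD1 (1.97) and the bile acid transporter-like BAT5 (2.65) were raised, and MAM1 (−0.20) and BCAT4 (0.63) were not called.

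The 3 lowered members of the glucosinolate list were neighbouring indole glucosinolate methyltransferases on chromosome 1. IGMT3 had 10.96 and 12.4 CPM in *urt1-1 xrn4-3*, compared with 25.6 and 41.2 CPM in WT (log2 fold change −1.51, SE 0.45, adjusted p = 0.0120), and IGMT4 (−1.48) and IGMT2 (−1.40) were alike. Only IGMT3 was called by the quasi-likelihood test (adjusted p = 0.0455). IGMT1 had 7.66 and 13.4 CPM, against 23.8 and 20.3 CPM in WT (−1.06, not called), whereas IGMT5 was raised (1.52). CYP81F4, which hydroxylates the indole ring, had 119 and 780 CPM, against 9.78 and 10.6 CPM in WT (5.46, SE 1.01, adjusted p = 2.08e-04), but it overlaps AT4G37409, shares 87.0% of its 21-base windows with other transcripts, and its reads cannot be assigned to either locus. When reads mapped to the genome set the library sizes, 28 members were raised and none was lowered, while relative to the median of all loci the list stood 1.25 higher in both scalings. Leaving out single libraries gave 14 (without WT replicate 2) to 17 raised members, and 0 lowered without either *urt1-1 xrn4-3* library.

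**Figure D3:**
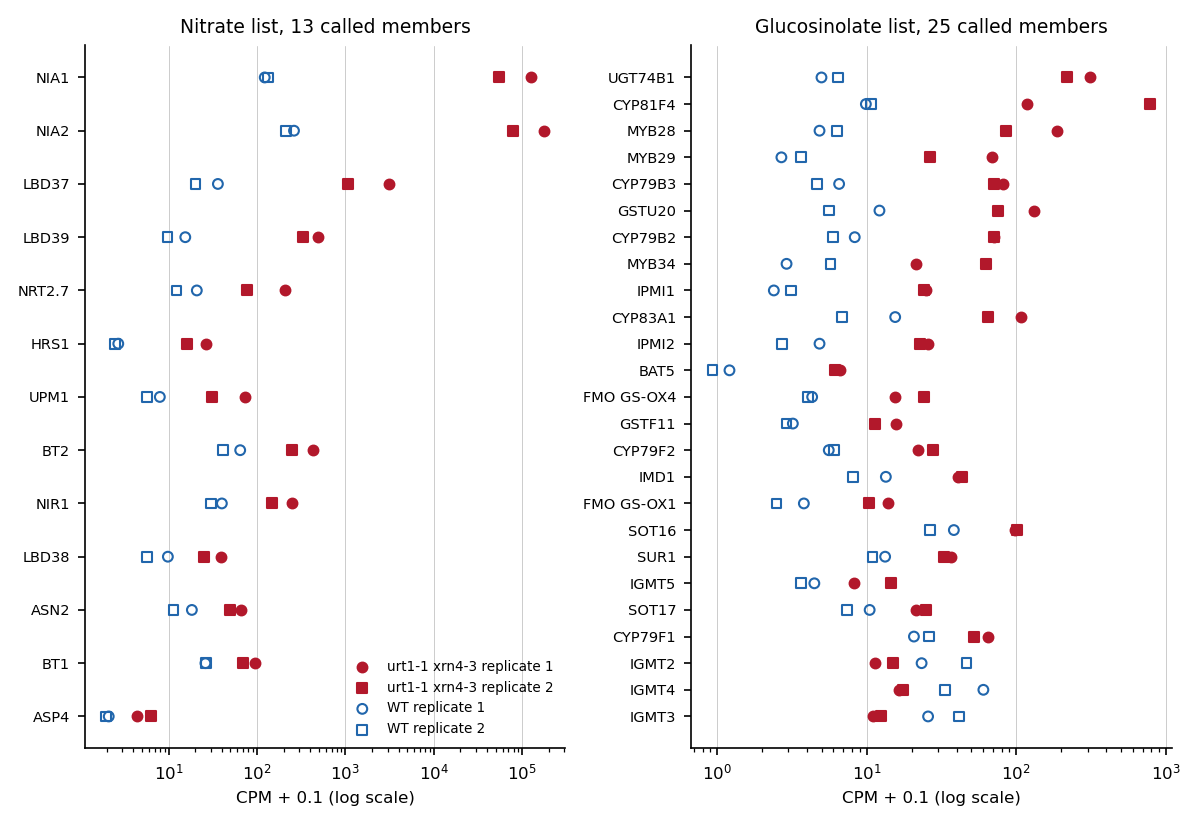
CPM plus 0.1 on a log axis for the 13 called members of the nitrate list (left) and the 25 called members of the glucosinolate list (right), ordered by log2 fold change. Filled red symbols are *urt1-1 xrn4-3* libraries and open blue symbols WT libraries; the symbols of the genotypes do not overlap at any member shown, and IGMT2, IGMT3 and IGMT4 are the members where *urt1-1 xrn4-3* is lower.

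Sulfate assimilation, which supplies the sulfur of cysteine and glucosinolates, was raised at 7 of 33 loci (21.2%, against 10% of all loci). The median of the list, which was drawn up after the values had been seen, was −0.10. The raised loci were those of a few steps. The plastid serine acetyltransferase SERAT2;1 had 1825 and 771 CPM in *urt1-1 xrn4-3*, compared with 10.4 and 13.2 CPM in WT (6.78, SE 0.63, adjusted p = 3.11e-14), and its mitochondrial counterpart SERAT2;2 had 85.3 and 51.9 CPM, against 6.52 and 6.36 CPM in WT (3.41, SE 0.53, adjusted p = 2.76e-07). All 3 adenosine phosphosulfate reductases were raised, APR2 at 166 and 108 CPM, against 11.2 and 7.61 CPM in WT (3.86, SE 0.57, adjusted p = 1.25e-07), APR1 (2.65) and APR3 (2.15). The ATP sulfurylase APS1 (2.06) and the kinase of adenosine phosphosulfate APK (2.52) completed the raised members. None of the sulfate transporters listed was called, and neither were the O-acetylserine (thiol) lyases OASA1, OASB and OASC, at −1.15, −0.99 and −0.94. The other serine acetyltransferase loci, SERAT1;1 (0.86), ATSERAT3;1 (0.07) and SERAT3;2 (−0.67), were not called either. No member was lowered by the likelihood ratio test, the quasi-likelihood test or DESeq2.

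In phenylalanine metabolism 5 of 8 loci were raised (62.5%, against 10% of all loci, median 2.32, list drawn up after the values had been seen). ADT4 and ADT5 are arogenate dehydratases, which make phenylalanine in the plastid. ADT5 had 244 and 1222 CPM in *urt1-1 xrn4-3*, compared with 10.6 and 12.0 CPM in WT (6.02, SE 0.83, adjusted p = 3.25e-07), and ADT4 had 350 and 448 CPM, against 9.63 and 8.23 CPM in WT (5.48, SE 0.62, adjusted p = 7.66e-11). PAL1 and PAL2, the phenylalanine ammonia-lyases that open the phenylpropanoid pathway, were raised to a smaller extent. PAL1 had 71.3 and 129 CPM, against 10.6 and 12.8 CPM in WT (3.10, SE 0.52, adjusted p = 1.74e-06), and PAL2 had 69.2 and 103 CPM, against 14.9 and 12.3 CPM in WT (2.66, SE 0.47, adjusted p = 5.25e-06). PAL1 and PAL2 were called above *xrn4-3* (2.60, adjusted p = 5.84e-04, and 2.34, adjusted p = 6.84e-04), and ADT4 and ADT5 were not (1.22, adjusted p = 0.488, and 1.46, adjusted p = 0.586). By the quasi-likelihood test none of the 8 loci was called above *xrn4-3*, and 2 were higher at an unadjusted p under 0.05. ADT6 was raised (1.97), while ADT1 (0.04), ADT2 (0.08) and PAL4 (−0.55) were not called.

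UGT glycosyltransferases attach sugars to hormones and secondary metabolites. Of 64 members, 23 were raised (35.9%, against 10% of all loci, median 1.01) and none was lowered by either edgeR test. The list was drawn up after the values had been seen. UGT75B1, which can glucosylate auxin and benzoates, had 3539 and 830 CPM in *urt1-1 xrn4-3*, compared with 78.8 and 37.4 CPM in WT (5.23, SE 0.70, adjusted p = 4.22e-08). UGT84A3, a glucosyltransferase of hydroxycinnamates, had 1037 and 385 CPM, against 24.97 and 14.4 CPM in WT (5.17, SE 0.62, adjusted p = 4.32e-10). UGT73B2, a flavonoid glucosyltransferase, had 682 and 224 CPM, against 10.4 and 5.52 CPM in WT (5.83, SE 0.63, adjusted p = 1.59e-11). Replicate 1 of *urt1-1 xrn4-3* was the higher at all of these loci. These UGT genes were not called above *xrn4-3*. At UGT75B1 the *xrn4-3* libraries had 1328 and 1945 CPM, and the log2 fold change of *urt1-1 xrn4-3* over *xrn4-3* was 0.42 (SE 0.70, adjusted p = 0.945). UGT73B2 shares 12.9% of its 21-base windows with other transcripts, so part of its reads can belong to relatives. Of the UGT genes 13 were raised without *urt1-1 xrn4-3* replicate 1 and 15 without either WT library.

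Among auxin genes, the SAUR genes, which encode small proteins of cell expansion, were raised at 27 of 60 loci and lowered at 1 (median 1.37). The shares were 45.0% raised, against 10% of all loci, and 1.67% lowered, against 1.05%. AT4G34760 had 94.4 and 110 CPM in *urt1-1 xrn4-3*, compared with 3.11 and 1.98 CPM in WT (5.31, SE 0.57, adjusted p = 7.82e-13), and AT2G21210 had 101 and 92.9 CPM, against 2.37 and 3.13 CPM in WT (5.14, SE 0.49, adjusted p = 8.47e-17). The tandem genes SAUR19, SAUR20, SAUR22, SAUR23 and SAUR24 on chromosome 5 were raised by 2.68 to 3.89 on the log2 scale. Reads that match several of these genes equally well could be counted at each, so they may not be separate measurements. Of the Aux/IAA repressors 7 of 23 were raised (30.4%), led by IAA2 (282 and 624 CPM, against 19.9 and 13.8 CPM in WT, log2 fold change 4.75, SE 0.69, adjusted p = 2.18e-07). Of the TIR1/AFB receptors 3 of 6 were raised (50%), including TIR1 (1.77) and AFB2 (1.64). AFB2 was not called by the quasi-likelihood test, and the receptor count was 1 without *urt1-1 xrn4-3* replicate 1, 0 without WT replicate 1 and 1 without WT replicate 2. Of the 23 auxin response factors none was called by the likelihood ratio test, the quasi-likelihood test or DESeq2. At an unadjusted p under 0.05 the likelihood ratio test gave 1 higher and 2 lower, and the median was 0.02, or −0.06 with DESeq2.

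In abscisic acid signalling, receptors inhibit PP2C phosphatases, which in turn hold the SnRK2 kinases inactive. Of the 9 clade A PP2C phosphatases 6 were raised (66.7%, against 10% of all loci, median 1.96). They were led by PP2CA with 362 and 245 CPM in *urt1-1 xrn4-3*, compared with 24.2 and 23.2 CPM in WT (3.68, SE 0.51, adjusted p = 1.21e-08). Of the 14 PYR/PYL receptors 6 were raised (42.9%, median 1.26), 2 of them by the quasi-likelihood test. Of 18 SnRK2 kinases and ABF factors 2 were raised (11.1%, close to the 10% of all loci, median 0.08). The receptor count was 1 without *urt1-1 xrn4-3* replicate 1, 2 without WT replicate 1 and 1 without WT replicate 2, and the count of SnRK2 and ABF genes was 1 whichever library was left out. In strigolactone and karrikin signalling 10 of 15 were raised (66.7%, median 1.93). SMXL5, a protein needed for phloem formation, had 206 and 398 CPM, against 5.70 and 6.98 CPM in WT (5.57, SE 0.65, adjusted p = 2.45e-10). The strigolactone receptor D14 had 664 and 368 CPM, against 19.6 and 11.5 CPM in WT (5.05, SE 0.63, adjusted p = 2.79e-09). SMXL5 was called above *xrn4-3* (3.97, SE 0.64, adjusted p = 2.48e-05) and D14 was not (−0.47, SE 0.63, adjusted p = 0.918). The strigolactone synthesis genes CCD7 and CCD8 were not called (−0.77 and 0.21).

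The lists of the other hormone pathways held 4 to 8 raised members each. The raised shares were 24% for gibberellin, 29.4% for jasmonate, 19.4% for brassinosteroid and 24.2% for cytokinin genes, against 10% of all loci. The median log2 fold changes of these lists were 0.41, 0.29, 0.06 and 0.41, so the members named below stand well above the middle of their lists. The gibberellin list was raised at 6 of 25, including the DELLA repressors RGA1 (199 and 122 CPM, against 13.6 and 17.3 CPM in WT, log2 fold change 3.37, SE 0.56, adjusted p = 1.91e-06) and GAI (2.42) and the receptor GID1B (2.24). The jasmonate list was raised at 5 of 17, including the factor MYC2 (102 and 120 CPM, against 16.0 and 9.80 CPM in WT, log2 fold change 3.10, SE 0.53, adjusted p = 3.52e-06), the co-receptor COI1 (2.45) and the repressor JAZ1 (1.97). Brassinosteroid genes were raised at 6 of 31, with the inhibitor BKI1 (4.17) and the receptor BRI1 (2.96), and cytokinin genes at 8 of 33, with the F-box genes KMD3 (3.37) and KMD4 (3.34) that target response regulators. Ethylene signalling was raised at 4 of 31 (12.9%, close to the 10% of all loci), among them the F-box genes EBF1 (7.54) and EBF2 (2.65). COI1, KMD3, KMD4 and EBF2 overlap a gene on the opposite strand, and 100% of the 21-base windows of KMD3 occur in other transcripts. Without WT replicate 2 the raised counts were 3 for gibberellin, jasmonate and cytokinin genes each, without *urt1-1 xrn4-3* replicate 2 the jasmonate count was 3, without *urt1-1 xrn4-3* replicate 1 or WT replicate 1 the cytokinin count was 5, and without WT replicate 1 the ethylene count was 1.

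Transcription factor families were raised to unequal extents. GATA and DOF zinc fingers were raised at 23 of 49 (46.9%, median 1.18). The DOF factor CDF3, of the photoperiod and cold response, had 564 and 514 CPM in *urt1-1 xrn4-3*, compared with 13.4 and 17.0 CPM in WT (5.15, SE 0.61, adjusted p = 4.09e-10). TCP factors were raised at 9 of 21 (42.9%, median 0.91) and ERF and DREB factors at 26 of 62 (41.9%, median 0.96), where RAP2.4, a light- and drought-responsive factor, had 971 and 748 CPM, against 16.4 and 15.9 CPM in WT (5.73, SE 0.59, adjusted p = 9.08e-13). Of photoreceptors, PIF and BBX genes 19 of 52 were raised. The BBX members BBX15 (451 and 586 CPM, against 16.4 and 15.5 CPM in WT, log2 fold change 5.02, SE 0.55, adjusted p = 4.04e-12), BBX16 (5.41) and BBX14 (3.88) were at the top of that list. Without *urt1-1 xrn4-3* replicate 1, WT replicate 1 and WT replicate 2, taken in this order, the raised counts were 15, 13 and 19 for GATA and DOF, 6, 5 and 4 for TCP, 18, 17 and 20 for ERF and DREB, and 12, 12 and 14 for the light-signalling genes.

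HD-ZIP and related homeobox factors were raised at 19 of 64 (29.7%), with HB5 at 314 and 295 CPM in *urt1-1 xrn4-3*, compared with 10.3 and 7.92 CPM in WT (log2 fold change 5.06, SE 0.56, adjusted p = 6.15e-12). The S1 and C group bZIP factors, which act in sugar and energy signalling, were raised at 5 of 9 (median 1.57), among them GBF6 (39.3 and 34.6 CPM, against 1.19 and 1.04 CPM in WT, log2 fold change 5.03, SE 0.61, adjusted p = 2.20e-11), bZIP2 (4.11) and BZIP53 (2.84), each of which overlaps another listed locus on its own strand. FLZ zinc finger genes, whose products bind the energy-sensing kinase SnRK1, were raised at 11 of 17 (64.7%, median 2.49, list drawn up after the values had been seen). Besides AT5G20700 they included AT3G63210 (333 and 232 CPM, against 3.93 and 8.86 CPM in WT, log2 fold change 5.47, SE 0.71, adjusted p = 1.44e-08). The loci AT1G53885 and AT1G53903 had equal counts in every library, so these 2 of the 11 are not separate measurements. The list of SnRK1 and trehalose phosphate genes was raised at 2 of 30 (6.67%). NAC (14 of 90, 15.6%), WRKY (12 of 62, 19.4%) and bHLH factors (12 of 61, 19.7%) stood closer to the 10% of all loci. Without *urt1-1 xrn4-3* replicate 1, WT replicate 1 and WT replicate 2, taken in this order, the raised counts were 11, 9 and 10 for the homeobox factors, 5, 6 and 6 for NAC, 4, 5 and 5 for WRKY and 9, 8 and 7 for bHLH factors, and WRKY factors numbered 5 without *urt1-1 xrn4-3* replicate 2.

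Ubiquitin ligases of the PUB and ATL families were raised at 19 of 41 (46.3%, median 0.88), and at 12 without *urt1-1 xrn4-3* replicate 1, 9 without WT replicate 1 and 9 without WT replicate 2. PUB25, a cold-response ligase, had 797 and 439 CPM in *urt1-1 xrn4-3*, compared with 12.0 and 9.80 CPM in WT (5.82, SE 0.60, adjusted p = 2.15e-12), and PUB26 had 166 and 94.9 CPM, against 5.33 and 3.02 CPM in WT (4.95, SE 0.60, adjusted p = 3.41e-10). The RING ligase RHA2A, of the abscisic acid response, had 101 and 111 CPM, against 1.63 and 1.98 CPM in WT (5.87, SE 0.61, adjusted p = 1.69e-13). BRG1 (5.65) and BRG2 (5.64) were raised with BOI (3.44), 3 of the 4 members of their family. Of 44 proteasome subunits 1 was raised and 1 lowered (median −0.17), and neither was called by the quasi-likelihood test.

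Among chaperones, 5 of 15 HSP70 (33.3%) and 5 of 11 HSP90 and HSP101 genes (45.5%) were raised, against 10% of all loci. HSP90.1 had 64.6 and 83.8 CPM in *urt1-1 xrn4-3*, compared with 6.15 and 3.75 CPM in WT (log2 fold change 3.89, SE 0.46, adjusted p = 1.02e-11), while none of 11 small heat shock proteins was called by the likelihood ratio test, the quasi-likelihood test or DESeq2 (1 higher and 0 lower at an unadjusted p under 0.05 in the likelihood ratio test). Ribosomal protein genes were raised at 65 of 354 (18.4%, median 0.34) and lowered at 5, and the count of raised members was 15 without *urt1-1 xrn4-3* replicate 1, 23 without WT replicate 1 and 16 without WT replicate 2. Histone genes were raised at 13 of 47 (27.7%, median 0.72), and at 5 without *urt1-1 xrn4-3* replicate 1, 8 without WT replicate 1 and 3 without WT replicate 2. Of the HSP70 genes 3 were raised whichever library was left out, and of the HSP90 and HSP101 genes 3 without WT replicate 2. Of the machinery of mRNA decay, 4 of 14 CAF1 and CCR4-NOT genes were raised (28.6%). Of 25 decapping, LSM and XRN genes 2 were raised (8%, near the 10% of all loci), PAT1 (1.75) and LSM2 (1.48). Of 29 genes of the silencing machinery, 2 were raised (6.90%, below the 10% of all loci), the dsRNA-binding protein genes DRB5 (1.73) and DRB2 (1.54). None of the Dicer-like, RNA-dependent RNA polymerase, Argonaute and SGS3 genes listed was raised. Without *urt1-1 xrn4-3* replicate 1, WT replicate 1 and WT replicate 2, taken in this order, the raised counts were 1, 3 and 1 for CAF1 and CCR4-NOT genes, 1, 1 and 0 for decapping, LSM and XRN genes, and 0, 0 and 0 for the silencing genes.

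Several large families had few raised loci. NLR immune receptors were raised at 1 of 152 (0.658%, median −0.14) and pentatricopeptide repeat (PPR) proteins at 7 of 268 (2.61%, median −0.04). PPR and NLR genes are known sources of secondary siRNA in Arabidopsis. Transcription factors targeted by miRNA were raised at 3 of 62, and poly(A)-binding and PUM proteins at 1 of 33. Cytochrome P450 genes were raised at 19 of 240 (7.92%) and lowered at 3 (1.25%), near the 10% and 1.05% of all loci, and the raised count was 11 without *urt1-1 xrn4-3* replicate 1 and 9 without either WT library. PPR genes had 0 raised without *urt1-1 xrn4-3* replicate 1, 4 without its replicate 2 and 1 without either WT library, and the miRNA-targeted factors 1 without either *urt1-1 xrn4-3* library and 0 without either WT library. None of the 122 mitochondrial and none of the 88 chloroplast loci was raised by the likelihood ratio test, the quasi-likelihood test or DESeq2, and 0 of either were higher at an unadjusted p under 0.05 in the likelihood ratio test.

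**Figure D4:**
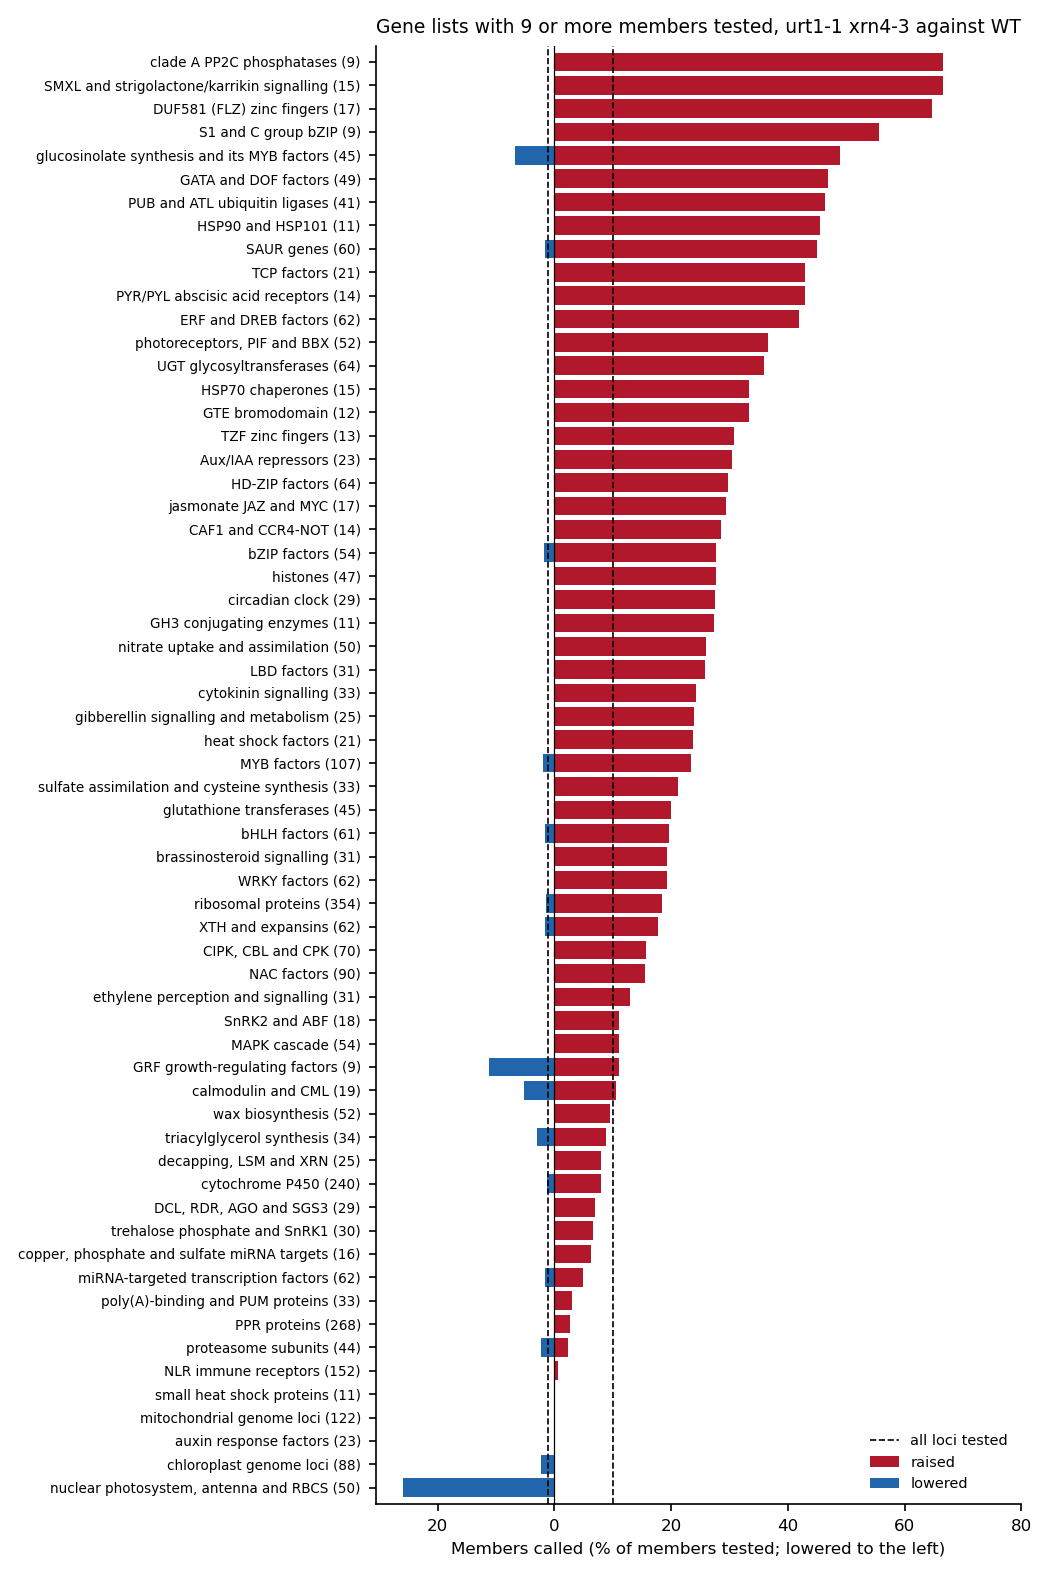
Percentage of members raised (red, to the right) and lowered (blue, to the left) in *urt1-1 xrn4-3* against WT for each gene list with at least 9 members tested, whose number is in parentheses. Dashed lines mark 10% raised and 1.05% lowered over all loci tested; PP2C phosphatases and the SMXL list stand at 66.7% raised and the photosystem list at 26.0% lowered.

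The share of raised loci differed with gene structure. Of 4409 loci with 1 exon 22.9% were raised, and the share was 14.3% for 2 exons, 8.37% for 3 to 5, 4.16% for 6 to 10 and 1.69% of 3371 loci with 11 or more. Loci with 1 exon also had the higher share than loci with 6 or more when loci were divided into 4 equal groups by their mean CPM in WT. In the lowest group 21.9% of loci with 1 exon were raised, against 4.82% of those with 6 or more, and in the highest group the shares were 15.3% and 1.46%. The same held in each of 4 equal groups by spliced length too, where 1-exon loci were raised at 15.05% to 30.3% and loci with 6 or more exons at 2.86% to 3.83%. Of the 25 most raised loci, NIA1 (4 exons), NIA2 and GTE2 (3 each) have introns, and SERAT2;1, PAO5, TCP14, ADT5 and PUB25 have a single exon. The chromosomes of the nucleus were alike, with 9.76% to 10.6% of their loci raised. Loci are not replicates, so these shares are given without a test.

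The 260 lowered loci changed less, with a median log2 fold change of −1.55, and 60 of them at least 4-fold. Both *urt1-1 xrn4-3* libraries were below both WT libraries at 244 of them, an order found at 23% of all loci tested. They held 0.277% and 0.320% of all counted reads in *urt1-1 xrn4-3*, compared with 1.15% and 0.816% in WT. Of the 260, 30 were also called below WT in *xrn4-3*, where 0.259% of all loci were. WT replicate 1 was at least 4 times WT replicate 2 at 31 of the lowered loci (11.9%), against 0.546% of all loci tested. Without WT replicate 1 the lowered count was 90, of which 54 were among the 260, and with reads mapped to the genome as library sizes it was 25.

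The 10 most lowered loci showed this unevenness only in part. The most lowered, AT1G47389 (−5.05), and AT1G10745 (−4.16) and DD46 (−3.95) stayed lower with each library left out. Their log2 fold changes then ran from −6.33 to −4.76, −6.82 to −3.01 and −4.43 to −3.22. AT3G22770, annotated as an F-box associated gene (chr3:8047684-8048667), was low in both *urt1-1 xrn4-3* libraries, at 5.52 and 5.12 CPM, against 59.3 and 41.0 CPM in WT (log2 fold change −3.24, SE 0.50, adjusted p = 2.06e-07). It shares 70.4% of its 21-base windows with other transcripts. ALE1, a subtilase of embryo surface formation, had 2.53 and 3.09 CPM, against 58.8 and 6.77 CPM in WT (−3.54, SE 0.77, adjusted p = 6.52e-04), and EMB2729, a plastid enzyme of the alpha-amylase family, had 5.06 and 5.43 CPM, against 83.8 and 8.96 CPM in WT (−3.14, SE 0.72, adjusted p = 0.00111). In both, most of the difference came from WT replicate 1. The same held for AT2G39300 (3.22 and 2.97 CPM, against 46.4 and 3.75 CPM in WT) and AT1G49800 (0.460 and 0.576 CPM, against 13.7 and 1.15 CPM in WT). Of the 10 loci 2 were called below *xrn4-3* (0.311% of all loci) and 4 below *urt1-1* (0.918% of all loci). The quasi-likelihood test called 0 of them below *xrn4-3*. In *xrn4-3*, 8 of the 10 were also called below WT (0.259% of all loci, with the WT libraries shared).

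Photosystem and antenna genes of the nucleus were the list with the largest share of lowered loci. Of 50 genes 13 were lowered and none raised (26.0% lowered, against 1.05% of all loci, with a median of −1.25). Both *urt1-1 xrn4-3* libraries were below both WT libraries at 40 of the 50, an order found at 23% of all loci tested. PSAN, a subunit of photosystem I, had 28.2 and 35.9 CPM in *urt1-1 xrn4-3*, compared with 152 and 95.8 CPM in WT (−1.95, SE 0.53, adjusted p = 0.00583). LHCB4.1, an antenna protein of photosystem II, had 98.3 and 98.9 CPM, against 432 and 247 CPM in WT (−1.78, SE 0.59, adjusted p = 0.0354), and LHCA1, of photosystem I, had 126 and 127 CPM, against 532 and 311 CPM in WT (−1.74, SE 0.59, adjusted p = 0.0393). WT replicate 1 was the highest library at each. The quasi-likelihood test called 1 of the 13 (25 of the 50 were lower at an unadjusted p under 0.05), and 0 were lowered without WT replicate 1, 0 without *urt1-1 xrn4-3* replicate 1 and 1 without *urt1-1 xrn4-3* replicate 2. With reads mapped to the genome as library sizes none was lowered, 1 was raised and the median was −0.45, which is 1.19 below the median of all loci in that scaling. Chloroplast genome loci moved with them, at a median of −1.13 and with 2 of 88 lowered; their median CPM was 92.4 and 28.4 in the *urt1-1 xrn4-3* libraries, against 170 and 88.1 in the WT libraries. The quasi-likelihood test called 0 of the 88. Their median was −2.16 without *urt1-1 xrn4-3* replicate 1 and −0.62 without its replicate 2. It was −0.625 without WT replicate 1 and −1.52 without WT replicate 2. The part of plastid RNA fragments in the photosystem result was not tested.

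**Figure D5:**
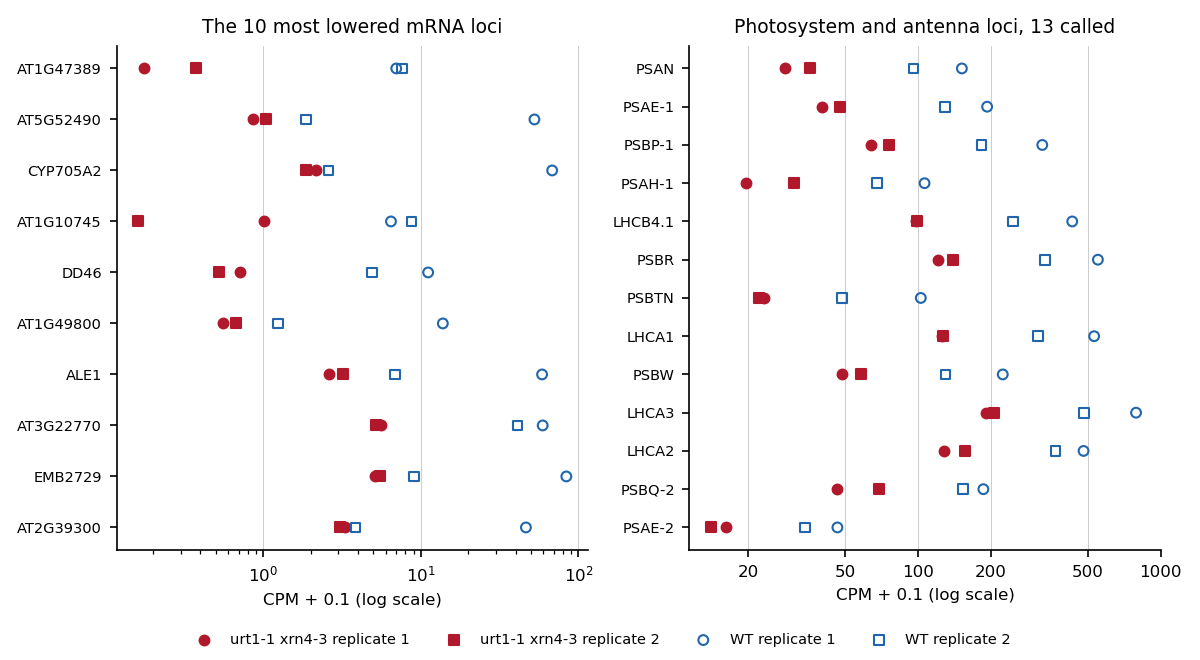
CPM plus 0.1 on a log axis for the 10 most lowered loci (left) and the 13 lowered photosystem and antenna loci (right). Filled red symbols are *urt1-1 xrn4-3* libraries and open blue symbols WT libraries; WT replicate 1 (open circles) lies far above WT replicate 2 (open squares) at AT5G52490, CYP705A2, ALE1, EMB2729 and AT2G39300, and above it by less at the photosystem loci.

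The 10 loci with the highest mean CPM took 41.2% and 32.3% of the counted reads in *urt1-1 xrn4-3*, against 31.1% and 26.3% in WT. The libraries of the genotypes did not overlap. The difference of 8.06 percentage points had p = 0.3333 in an exact two-sided permutation test over the libraries, which is the smallest p that 2 against 2 libraries allow and so cannot pass a threshold of 0.05. The loci were ranked by mean CPM over the 4 libraries, so NIA1 and NIA2, the raised loci among the 10, entered through *urt1-1 xrn4-3*. NIA2 took 15.5% and 8.75% of the reads there, against 0.0242% and 0.0205% in WT. NIA1 took 11.1% and 5.99%, against 0.0113% and 0.0129% in WT. The other loci of the set were led by AT5G14550 (57342 and 44774 CPM, against 117979 and 70136 CPM in WT, log2 fold change −0.88, SE 0.54, adjusted p = 0.353). They were not called, and their log2 fold changes were all negative (−1.39 to −0.25). The higher share of the set in *urt1-1 xrn4-3* was thus that of NIA1 and NIA2.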

How the data were processed

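Small RNA libraries of the double mutant, both single mutants and WT were compared, with genotypes taken from the labels. The authors called bases with CASAVA 1.8.2, mapped reads to TAIR10 with Bowtie 1.0.0 (best alignments, which can place a read at several loci) and counted them on mRNA loci with bedtools 2.17.0, with no strand setting named. The deposited raw counts were used as they stand. The 8 deposited columns of CPM values that the authors scaled with edgeR 3.26.5, a unit of its own kind because the columns do not sum to 1000000, were not used.

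Differences in counts were assessed in R 4.3.3 by edgeR 4.0.16, using filterByExpr with a count minimum of 10, TMM factors, estimateDisp, 1 coefficient per genotype over all 8 libraries, the likelihood ratio test and Benjamini-Hochberg adjustment over 24722 loci at 0.05. The quasi-likelihood test, DESeq2 1.42.0, other scalings and filters, a replicate block and each library left out were alternatives. The fit was tested on simulated counts. Figures were drawn with matplotlib 3.10.9.

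Named loci are URT1 and XRN4, the 25 most raised and 10 most lowered with at least 10 reads on average and no overlap between the genotypes, the 10 with the largest gain in CPM, and up to 4 called members per list. Other members named were chosen after their values were seen. Members and the 69 gene lists, made from symbols and product names, were chosen with earlier results of these data known, and 8 lists after the values were seen (glucosinolate, phenylalanine, sulfate, glutamine dumper, FLZ, LBD, GRF and UGT). Lists were given no test. Of 24859 loci, 24442 matched a RefSeq gene of TAIR10.1. Coordinates of loci are those of the deposited table.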

Additional observations from a re-analysis of the deposited data

Results flagged for a closer look

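At 12 named loci the effect of *urt1-1* differed between the *xrn4-3* and the WT background by edgeR's likelihood ratio test of the interaction, adjusted over all loci. None of the 12 was called by the quasi-likelihood test, by which 0 loci of the table were called and 793 were higher and 358 lower at an unadjusted p under 0.05. The difference, as the log2 fold change of *urt1-1 xrn4-3* over *xrn4-3* minus that of *urt1-1* over WT, was 6.89 at NIA1, 7.29 at NIA2, 6.77 at GTE2, 6.75 at GTE7, 6.77 at TOP2, 6.91 at DGAT3 and 5.61 at DFL1. It was 4.11 at WES1, which like DFL1 encodes an auxin-conjugating GH3 enzyme, 3.91 at HSP70, 3.255 at HSP90.1, 2.75 at SMXL7 and −3.91 at AT1G10745. DGAT3 had 17.02 and 15.02 CPM in *xrn4-3*, against 15.6 and 12.1 CPM in WT, and GRF5, not among the 12, had 57.0 and 186 CPM in *xrn4-3*, against 2.22 and 2.61 CPM in WT.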

How the results depend on the processing

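The 2474 raised loci numbered 2175 with RLE size factors, 2381 with library size only, 2468 with no filter, 2749 with only *urt1-1 xrn4-3* and WT in the fit and 1704 with DESeq2, and all 2474 were among the 4924 raised with reads mapped to the genome as library sizes. Leaving out each of the 4 libraries gave 1300 to 1868 raised and 90 to 212 lowered loci. The 260 lowered loci numbered 86 with the quasi-likelihood test, 152 with library size only, of which 149 were among the 260, and 25 with reads mapped to the genome, all 25 among the 260. Higher calls made up 90.5% of calls in the main scaling and 99.5% with reads mapped to the genome. The replicate number of the labels as a block gave 2896 raised and 521 lowered loci. Same-numbered *urt1-1 xrn4-3* and WT libraries deviated together (r = 0.42), but while replicates of a genotype were grown at separate times, no source says that the same number marks the same growth in different genotypes, so the samples were not taken as paired. Of the named loci 1 changed sign, PBG1, whose log2 fold change ran from −3.21 to 0.0625 when single libraries were left out (0.0625 without WT replicate 1). The share of reads in the top loci differed by 2.69 points for 50 loci and by 3.51 to 12.5 points for 10 loci when a library was left out. With DESeq2 the median of all loci was −0.08, and the medians of 9 lists within 0.1 of 0 changed sign. The cause of these differences was not tested.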

Other observations

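With 2 libraries per genotype no single value per library can reach p under 0.3333, and calls rest on a spread shared across loci. Small RNA at overlapping or near-identical loci can be counted more than once, sizes and strands of reads were not analysed here, and levels were not compared between genes per length. Calls near the threshold depend on single libraries, above all among the lowered loci.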
